A study of Oryza sativa Indica Group with 18 samples.

Results

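The FTSH genes of rice encode membrane-bound proteases, and their transcripts were followed through heat in seedlings of the indica cultivars Annapurna and IR64. The members are all genes whose symbol or synonym in the array annotation is FTSH followed by 1 digit, with or without the prefix Os. The rule found 9 genes, FTSH1 to FTSH9, and 11 of the 57258 probe sets tested. The 9 are among 17905 genes that have a probe set to which the annotation gives no other gene. Whether the probes also match other transcripts was not tested. FTSH6 and FTSH9 have 2 probe sets each and the other 7 genes have 1. The title of the series speaks of tolerance and susceptibility to heat without assigning either to a cultivar, so both are called by name. Each of 6 groups holds 3 arrays of whole seedlings, 7 days old, grown hydroponically and labelled as biological replicates, which makes 18 arrays. Controls of each cultivar stood at 28 °C for 3 h. The 37 °C groups were held at 37 °C for 1 h, and the groups called 42 °C here at 37 °C for 1 h with 2 h at 42 °C after it, in light at about 40% relative humidity. The 37 °C seedlings were therefore taken after 1 h and all others after 3 h. Temperature and elapsed time thus cannot be told apart in any comparison with 37 °C. No humidity is recorded for the controls, so humidity and temperature cannot be told apart in any comparison of heat with control.

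FtsH proteases are anchored in membranes of chloroplasts and mitochondria. They use ATP to pull damaged or unassembled proteins out of the membrane and cut them at a zinc-dependent active site. In chloroplasts a complex of FtsH subunits in the thylakoid removes the photodamaged D1 protein of photosystem II, which lets a new copy be inserted; in mitochondria related complexes control the quality of respiratory chain subunits. Protein databases name FTSH1, FTSH2, FTSH6 and FTSH7 of rice as chloroplast proteins and FTSH3, FTSH4, FTSH5 and FTSH8 as mitochondrial ones. FTSH9 is grouped here with the chloroplast genes only because its namesake in Arabidopsis is a chloroplast protein. A shared number does not establish a shared place, so this grouping is provisional. In Arabidopsis FtsH6 is linked to heat, through the turnover of a small heat shock protein of the chloroplast.

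Values are the deposited intensities, in arbitrary units, and each probe set has its own response to RNA, so levels are compared between arrays and never between genes. Array medians lay between 7.56 and 8.17, arrays of the same group correlated at 0.997 to 0.999 over all probe sets, and arrays of different groups at 0.961 to 0.987. Differences are in log2 of intensity plus 16, ± SE, from 1 fit of limma to all 18 arrays, with p values adjusted over all probe sets. A gene is said to rise or fall when adjusted p was under 0.05 and the difference at least 2-fold; smaller differences are given as values. The tissue labels were checked on marker genes. All 5 shoot markers (RBCS, rca, PORA, CAB2R and CHL1) read at least 1511 on every array, and all 4 root markers (Lsi1, Lsi2, NRAMP5 and Nrat1) read at least 81.4. The summed root markers moved with heat in both cultivars, from 3385 to 4693 in controls to 1721 to 2075 at 37 °C and 10928 to 12516 at 42 °C. The members did not all move with the sum: the mean of Lsi1 was above control at 37 °C in both cultivars (1410 against 1192 in Annapurna and 1182 against 907.8 in IR64), and that of NRAMP5 was below control at 42 °C (419.2 against 506.2 and 437.7 against 625.4). The part of these markers in the heat differences of the FTSH genes was not tested. Whole seedlings are bulk samples, so fewer cells of a type and less RNA per cell cannot be told apart.

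FTSH6 had the widest range in fold of the 9 genes. It was low in both controls, high in Annapurna after 1 h at 37 °C, raised to a much smaller level in IR64 at 37 °C, and low again at 42 °C. In Annapurna controls its main probe set, the one with the higher mean, read 14.3, 15.7 and 14.2. At 37 °C the Annapurna arrays read 435.9, 390.6 and 330.0, and at 42 °C they read 16.4, 17.9 and 17.1. All 3 arrays at 37 °C stood far above the other 6 of this cultivar. The mean at 37 °C, 385.5 ± 53.1 (SD, n = 3), was 26.1 times the control mean of 14.7 ± 0.848. After 16 was added the difference was log2 3.70 ± 0.095, or 12.98-fold. The control readings are low, so the size of the fold depends on the amount added (log2 4.61 with 1 and 2.51 with 64). FTSH6 was singled out as the heat-responsive member with results of these arrays known, so its changes with heat inside a cultivar are a description and carry no test.

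In IR64 the same probe set read 16.2, 17.5 and 16.3 in controls and 41.2, 45.1 and 41.7 at 37 °C. The 37 °C arrays did not overlap the controls, and their mean of 42.7 ± 2.11 was 2.56 times the control mean of 16.7 ± 0.703. Because 16 is added to values this low, the difference came to log2 0.85 ± 0.095; it was 1.31 with 1 added and 0.40 with 64 added. After the 42 °C step the IR64 arrays read 28.2, 29.3 and 21.1, between its 37 °C and control arrays and overlapping neither. Ordered by mean, FTSH6 was highest in Annapurna at 37 °C, then IR64 at 37 °C, IR64 at 42 °C (26.2 ± 4.47), Annapurna at 42 °C (17.1 ± 0.723), IR64 controls and Annapurna controls. Among neighbours in this order, only the arrays of Annapurna at 42 °C and of the IR64 controls overlapped.

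**Figure D1:**
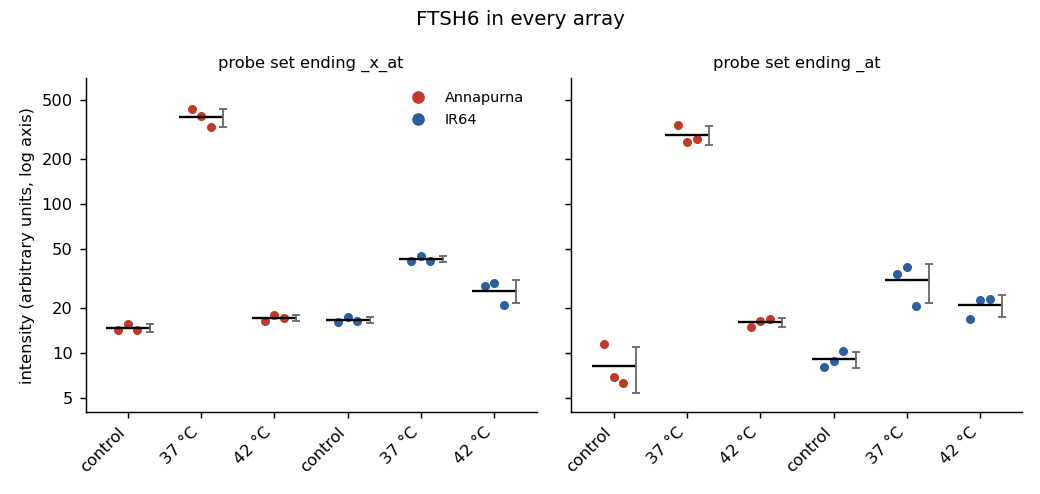
Intensity of FTSH6 on every array, on a log axis, for its 2 probe sets and 6 groups; points are arrays, horizontal bars are means and the grey error bars are SD (n = 3). On both probe sets the 3 Annapurna arrays at 37 °C stand above all others, and the main probe set reads 330.0 to 435.9 there against 41.2 to 45.1 in IR64.

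The difference between the cultivars in FTSH6 was tested. The differences that involve 37 °C rest on the same Annapurna arrays that made FTSH6 stand out as heat responsive. The p values of FTSH6 do not allow for its choice with results of these arrays known. In controls Annapurna minus IR64 was log2 -0.09 ± 0.095 (limma adjusted p = 0.44). At 37 °C FTSH6 was higher in Annapurna by log2 2.77 ± 0.095 (adjusted p = 2.8e-11), 9.03 times in mean intensity. At 42 °C it was lower in Annapurna by log2 0.34, short of 2-fold, with the difference at -0.34 ± 0.095 (adjusted p = 0.017). The response to 37 °C itself differed by log2 2.85 ± 0.13 between the cultivars, with a 95% interval of 2.56 to 3.14 (adjusted p = 1.3e-08). The interval does not cover the choice of the amount added: the value was 3.30 with 1 added and 2.10 with 64 added, and FTSH6 was called with each. FTSH6 ranked 5 of 17905 genes for a larger response in Annapurna, although it ranked 54 for the size of its increase there. From 37 °C to 42 °C the change differed by log2 -3.11 ± 0.13 (adjusted p = 1.6e-09), with Annapurna back near its control level. The response at 42 °C against control differed by log2 -0.26 ± 0.13 (adjusted p = 0.11).

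The other probe set of FTSH6, drawn from the same transcript record, gave the same picture. It read 6.22 to 11.4 in Annapurna controls and 8.08 to 10.3 in IR64 controls, close to the array medians. At 37 °C it read 340.4, 261.5 and 275.4 in Annapurna and 33.7, 38.0 and 20.7 in IR64. The responses to 37 °C differed by log2 2.79 ± 0.20 (adjusted p = 5.5e-07), against 2.85 on the main probe set. At 42 °C it read 14.8 to 16.8 in Annapurna and 16.9 to 23.1 in IR64, a little above its controls in both cultivars.

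None of the other 8 FTSH genes was called higher in any of the 12 comparisons, and only FTSH7 and FTSH9 were called lower. At 37 °C 1 of the 8, FTSH7, fell in Annapurna and 0 of 8 changed in IR64; over all genes, 10.3% and 9.22% were called in these comparisons. At 42 °C 1 of the 8, FTSH9, fell in each cultivar, where 8.9% of all genes were called in Annapurna and 11.5% in IR64. From 37 °C to 42 °C 0 of the 8 changed, against 9.14% of all genes in Annapurna and 6.45% in IR64. With 8 genes, each of these counts lies near the share of all genes. The median difference of the 8 was log2 -0.21 at 37 °C and -0.68 at 42 °C in Annapurna, and -0.15 and -0.02 in IR64, while the median of all genes was within log2 0.02 of 0 in each case. At 37 °C in Annapurna the mean of all 8 lay below control, as it did for 57.8% of all genes.

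**Figure D2:**
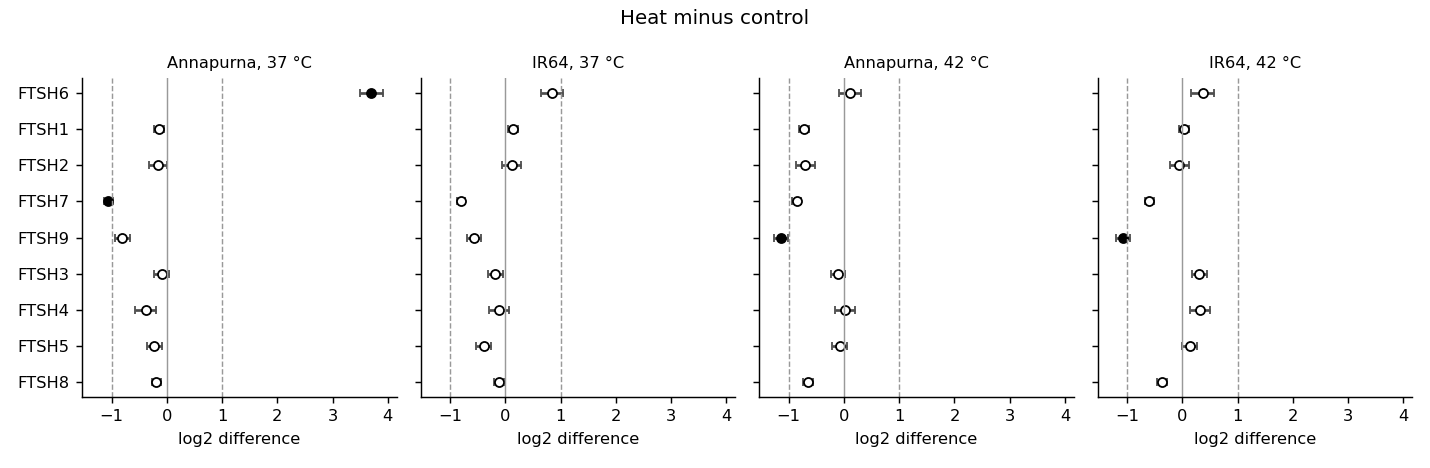
Log2 difference from the control of the same cultivar for the 9 FTSH genes (1 probe set each) at 37 °C and 42 °C; bars are 95% intervals of the fit, filled points are called at 2-fold and adjusted p under 0.05, and dashed lines mark 2-fold. FTSH6 stands alone at log2 3.70 in Annapurna at 37 °C, while FTSH7 and FTSH9 lie near the lower 2-fold line. The filled point of FTSH6 is a description, since its heat changes inside a cultivar carry no test.

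FTSH7, which belongs to the chloroplast group, was lower after 1 h at 37 °C in both cultivars. In Annapurna it read 2648, 2665 and 2697 without heat. The readings were 1291, 1286 and 1229 at 37 °C, then 1530, 1435 and 1437 at 42 °C. The arrays of the 3 groups did not overlap. It fell at 37 °C by 1.06 ± 0.037 on the log2 scale (adjusted p = 2.1e-11), 2.10-fold in mean intensity, close to the 2-fold limit. At 42 °C it lay at log2 -0.86 ± 0.037 from control (adjusted p = 2.8e-10), short of 2-fold. In IR64 it read 1842, 1943 and 2035 without heat, 1107, 1129 and 1072 at 37 °C, then 1300, 1269 and 1253 at 42 °C. The differences from control in IR64 were log2 -0.81 ± 0.037 at 37 °C (adjusted p = 5.3e-10) and -0.60 ± 0.037 at 42 °C (adjusted p = 9.3e-09). FTSH7 thus stood lowest at 37 °C in both cultivars, and its value at 42 °C was above that at 37 °C by log2 0.21 ± 0.037 in each (adjusted p = 5.5e-04 in Annapurna and 3.3e-04 in IR64). The response at 37 °C differed between the cultivars by log2 -0.26 ± 0.053 (adjusted p = 0.0052), and this is the distance between a value past the 2-fold limit in Annapurna and one short of it in IR64.

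FTSH9 was lower at each heat step in both cultivars. On its main probe set Annapurna read 2391, 2134 and 2094 without heat, 1282, 1235 and 1245 at 37 °C, then 976.6, 966.6 and 1022 at 42 °C. IR64 read 1395, 1458 and 1475 without heat, 1016, 930.2 and 958.6 at 37 °C, then 647.8, 636.2 and 751.0 at 42 °C. In each cultivar the 3 groups did not overlap. At 42 °C FTSH9 fell by 1.14 ± 0.061 in Annapurna (adjusted p = 2.3e-09) and by 1.07 ± 0.061 in IR64 (adjusted p = 3.7e-09) on the log2 scale, 2.23-fold and 2.13-fold in mean intensity. At 37 °C it was at log2 -0.80 ± 0.061 (adjusted p = 8.6e-08) and -0.57 ± 0.061 (adjusted p = 3.6e-06), short of 2-fold. Its other probe set fell at 42 °C as well, by 1.22 in Annapurna (adjusted p = 2.7e-06) and 1.14 in IR64 (adjusted p = 2.3e-06).

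Grain amylases differed between the IR64 groups, though AMY1.1 and AMY1.3 did not move together. The same arrays serve every gene, so this is not limited to FTSH9. AMY1.1, a starch-degrading amylase of germinating grain, read 8767 to 10078 on the IR64 arrays at 42 °C. It read 3532 on 1 of the 3 IR64 controls, against 37.9 and 41.6 on the others, and 5.62 to 5.65 in IR64 at 37 °C. AMY1.3 was highest at 37 °C in both cultivars. Its means from control to 42 °C were 10.5, 667.8 and 93.0 in IR64 and 9.93, 95.7 and 7.98 in Annapurna. The 4 grain markers (AMY1.1, AMY1.3, EP3A and GLB1) summed to 526.4 to 4090 in IR64 controls, 1819 to 1973 in IR64 at 37 °C and 11648 to 13241 in IR64 at 42 °C, and to 804.3 to 1097, 1690 to 1825 and 2951 to 3257 in the same Annapurna groups. At 42 °C AMY1.1 read 5.47 to 5.49 in Annapurna, where the grain sum was mostly GLB1, with a mean of 3122. Without the IR64 control that read 3532, the FTSH9 difference in IR64 at 42 °C was log2 -1.06. The controls left read 37.9 and 41.6 for AMY1.1, so their gap to the 42 °C arrays in this marker was wider, not closed. This value therefore cannot show the part of the grain markers in the FTSH9 differences, which was not tested. Nor was their part tested in any other comparison that uses the IR64 arrays at 42 °C. Those include the comparisons of FTSH1, FTSH2, FTSH3 and FTSH6 and of the genes outside the family.

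**Figure D3:**
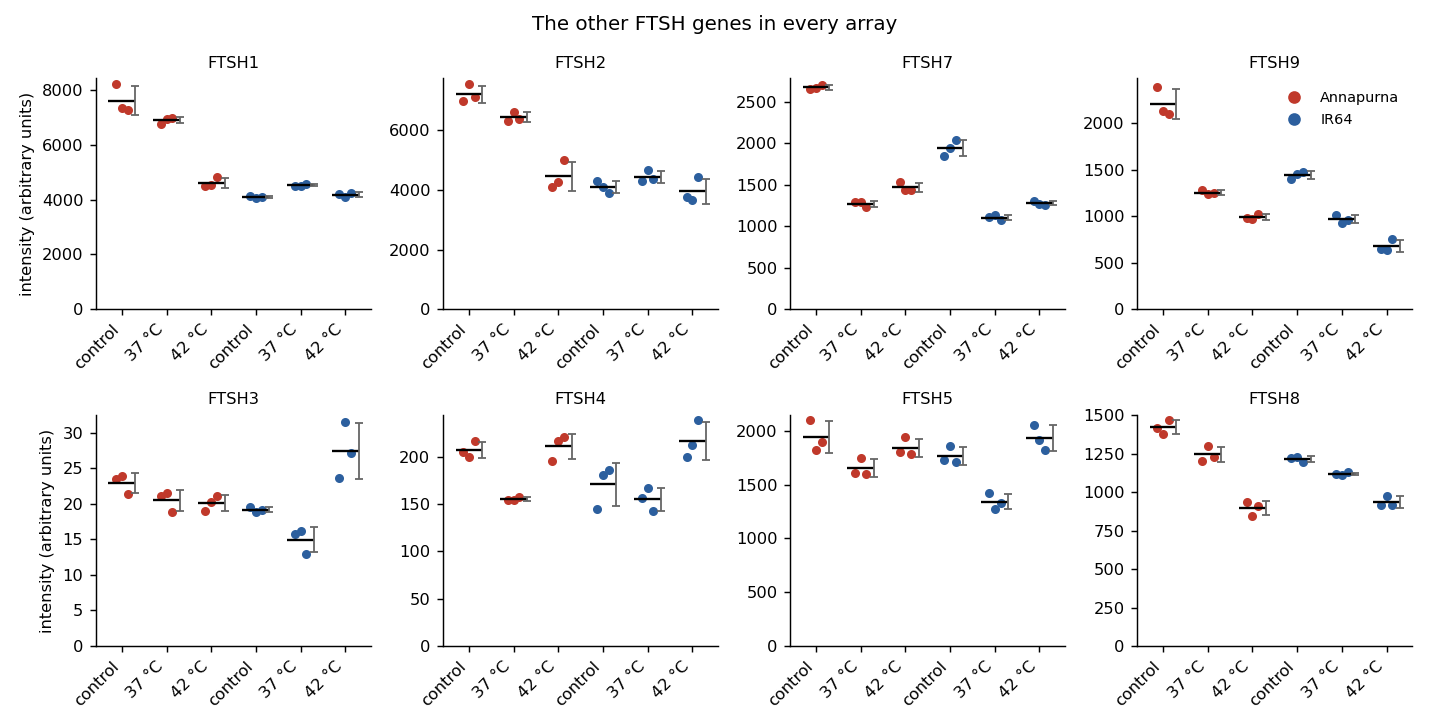
Intensity of the 8 FTSH genes other than FTSH6 on every array (linear axes from 0, main probe sets), with the mean as a horizontal bar and SD as a grey error bar (n = 3). FTSH7 and FTSH9 are below control in heat in both cultivars, and FTSH1 and FTSH2 stand higher in Annapurna than in IR64 in controls and at 37 °C, with a smaller gap at 42 °C, where the arrays of the cultivars overlap for FTSH2 and not for FTSH1.

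FTSH1 and FTSH2, which belong to the chloroplast group, differed between the cultivars before heat, and the difference was smaller at 42 °C. FTSH1 read 8206, 7339 and 7258 in Annapurna controls and 4123, 4066 and 4101 in IR64 controls. FTSH2 read 6963, 7526 and 7095 in Annapurna controls and 4302, 4085 and 3906 in IR64 controls. No Annapurna control overlapped an IR64 control for either gene. The differences were log2 0.89 ± 0.041 for FTSH1 (adjusted p = 8.0e-10) and 0.81 ± 0.078 for FTSH2 (adjusted p = 1.7e-06), 1.86 and 1.76 times in mean intensity and so short of 2-fold. At 37 °C the differences were log2 0.61 ± 0.041 (adjusted p = 4.9e-08) and 0.54 ± 0.078 (adjusted p = 1.1e-04).

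At 42 °C FTSH1 read 4492, 4514 and 4813 in Annapurna and 4204, 4076 and 4246 in IR64. FTSH2 read 4094, 4254 and 4991 in Annapurna and 3743, 3658 and 4439 in IR64. The FTSH2 arrays of the cultivars overlapped, with a difference of log2 0.17 and a 95% interval of 0.00 to 0.34 (adjusted p = 0.17), while those of FTSH1 did not overlap and differed by log2 0.14 ± 0.041 (adjusted p = 0.024). In Annapurna the difference from control at 42 °C was log2 -0.72 ± 0.041 for FTSH1 (adjusted p = 4.8e-09) and -0.70 ± 0.078 for FTSH2 (adjusted p = 5.8e-06). The IR64 arrays stayed between 4066 and 4573 for FTSH1 and between 3658 and 4651 for FTSH2 in all 3 groups. The response at 42 °C differed between the cultivars by log2 -0.75 ± 0.058 for FTSH1 (adjusted p = 6.5e-07) and -0.64 ± 0.11 for FTSH2 (adjusted p = 3.7e-04).

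The mean of 4 of the 5 shoot markers was also higher in Annapurna controls than in IR64 controls, and that of CHL1 was lower, at 4124 against 4514. Their sum was 113608 to 117885 in Annapurna controls and 91804 to 97398 in IR64 controls, and 110444 to 115571 and 96686 to 100489 at 42 °C. The part of the markers in the FTSH1 and FTSH2 differences was not tested.

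Of the 4 mitochondrial genes 0 were called in any of the 12 comparisons, in which between 2.82% and 11.5% of all genes were called. FTSH8 read 1382 to 1471 in Annapurna controls, 1205 to 1303 at 37 °C and 847.7 to 937.9 at 42 °C, and in IR64 1198 to 1232, 1115 to 1129 and 915.6 to 979.2. At 42 °C it was the furthest below control of the 4, at log2 -0.65 ± 0.041 in Annapurna at 42 °C (adjusted p = 1.2e-08) and -0.37 ± 0.041 in IR64 (adjusted p = 2.0e-06). The responses at 42 °C differed by log2 -0.28 ± 0.058 (adjusted p = 9.3e-04).

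FTSH4 and FTSH5 are neighbours on chromosome 1 in the reference gene table, and both were lowest at 37 °C. FTSH4 read 200.4 to 217.1 in Annapurna controls, 154.0 to 157.6 at 37 °C and 196.2 to 221.0 at 42 °C. In IR64 it read 145.4 to 186.7, 142.9 to 167.0 and 199.5 to 239.5, where controls and 37 °C overlapped. Its difference between 37 °C and 42 °C was short of 2-fold, at log2 0.41 ± 0.086 in Annapurna (adjusted p = 0.0020) and 0.44 ± 0.086 in IR64 (adjusted p = 5.2e-04). FTSH5 read 1823 to 2104, 1595 to 1748 and 1787 to 1941 in the Annapurna groups from control to 42 °C, and 1706 to 1858, 1278 to 1420 and 1823 to 2056 in those of IR64. At 37 °C it was at log2 -0.39 ± 0.063 from control in IR64 (adjusted p = 1.8e-04) and -0.23 ± 0.063 in Annapurna (adjusted p = 0.012). FTSH3 read low, at 12.9 to 31.6 over the 18 arrays. Its highest group was IR64 at 42 °C, with 23.6, 31.6 and 27.2 against 18.8 to 19.6 in IR64 controls, log2 0.30 ± 0.063 (adjusted p = 5.7e-04), and its 42 °C response differed between the cultivars by log2 -0.41 ± 0.089 (adjusted p = 0.0014).

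Between the cultivars, 0 of the 8 genes other than FTSH6 differed 2-fold at any step, where 6.17% of all genes were called in controls, 5.45% at 37 °C and 5.6% at 42 °C. Nor did any of the 8 differ 2-fold in its response, where 2.82% of all genes were called at 37 °C, 5.54% at 42 °C and 5.13% from 37 °C to 42 °C. In controls the mean of all 8 was nevertheless higher in Annapurna, as it was for 54.4% of all genes, with a median difference of log2 0.36 against 0.04 over all genes. Of these, FTSH9 differed by log2 0.61 ± 0.061 (adjusted p = 2.7e-06), FTSH7 by 0.46 ± 0.037 (adjusted p = 3.0e-07), FTSH4 by 0.27 ± 0.086 (adjusted p = 0.013) and FTSH8 by 0.22 ± 0.041 (adjusted p = 2.4e-04). At 42 °C the median difference of the 8 was log2 0.05. FTSH9 had the largest difference of the 8 there, log2 0.54 ± 0.061 (adjusted p = 1.1e-05), on its main probe set. The other FTSH9 probe set had smaller gaps between the cultivars. Its means in Annapurna and IR64 were 1656 and 1231 in controls, against 2206 and 1443 on the main one. At 42 °C they were 697.5 and 551.0, against 988.5 and 678.3. At 37 °C its arrays overlapped, at 793.4 to 896.1 and 694.6 to 811.9.

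**Figure D4:**
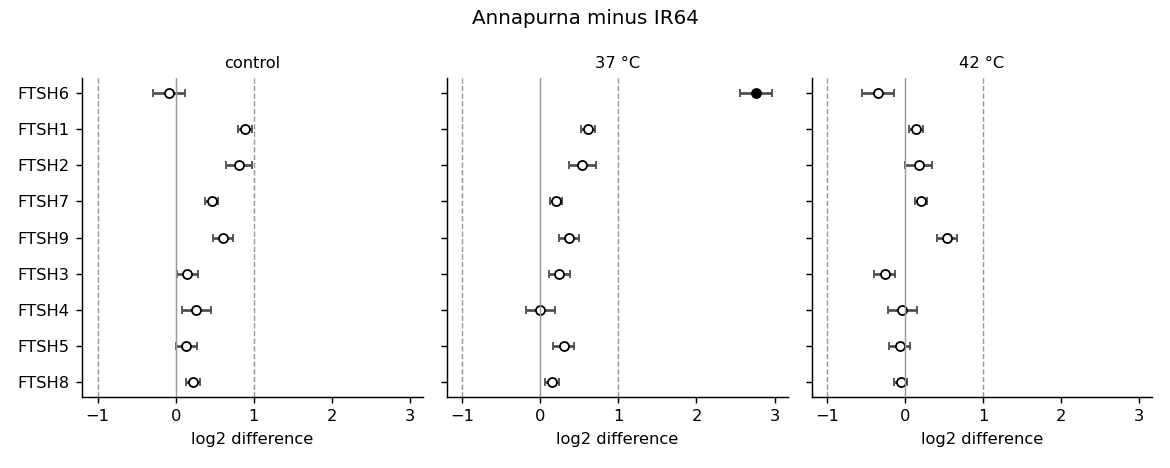
Annapurna minus IR64 in log2 for the 9 FTSH genes in controls, at 37 °C and at 42 °C; bars are 95% intervals, filled points are called, and dashed lines mark 2-fold. FTSH6 is near 0 in controls and at 2.77 at 37 °C, while FTSH1 and FTSH2 move from 0.89 and 0.81 in controls towards 0 at 42 °C.

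Among the other organelle proteases and Clp subunits, EGY3 and CLPD1 rose at 37 °C in both cultivars. The list of other organelle proteases and Clp subunits holds 8 measured genes of 9 in the reference: CLPC1, CLPC2, CLPC3, CLPD1, CLPD2, EGY1, EGY2 and EGY3. CLPC and CLPD proteins are chloroplast chaperones that feed substrates to the Clp protease, and EGY proteins are a family of membrane metalloprotease homologues of the chloroplast. At 37 °C these 2 of the 8 rose and 0 fell in each cultivar, where 10.3% of all genes were called in Annapurna and 9.22% in IR64. In Annapurna 4 of the 8 lay above control and 4 below, with a median of log2 0.0032 against -0.014 over all genes. EGY3 rose from a mean of 991.5 to 13888 in Annapurna (log2 3.79 ± 0.13, adjusted p = 1.2e-11) and from 218.1 to 7578 in IR64 (log2 5.04 ± 0.13, adjusted p = 6.9e-13). CLPD1 rose from 944.5 to 3073 in Annapurna (log2 1.70 ± 0.14, adjusted p = 1.5e-07) and from 357.6 to 862.2 in IR64 (log2 1.24 ± 0.14, adjusted p = 4.2e-06).

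Unlike FTSH6, EGY3 had the larger response in IR64, by log2 1.25, with Annapurna minus IR64 at -1.25 ± 0.18 (adjusted p = 3.4e-04). It started from a control that was higher in Annapurna by log2 2.12 ± 0.13 (adjusted p = 1.1e-08), so its levels at 37 °C still stood higher in Annapurna, by log2 0.87 ± 0.13 (adjusted p = 1.0e-04). CLPD1 differed in its 37 °C response by log2 0.46 ± 0.19 (adjusted p = 0.13). Its level at 37 °C was nevertheless called higher in Annapurna, by log2 1.81, with means of 3073 and 862.2. In controls the CLPD1 means were 944.5 in Annapurna and 357.6 in IR64. At 42 °C 2 of the 8 fell in Annapurna (8.9% of all genes called), CLPD1 by 1.49 ± 0.14 (adjusted p = 7.0e-07) and CLPD2 by 1.03 ± 0.14 (adjusted p = 3.0e-05). The CLPD2 call was lost without replicate 3 of Annapurna at 42 °C, which left 1 of 8. In IR64 at 42 °C 3 of the 8 were called (11.5% of all genes). EGY3 (log2 2.61 ± 0.13, adjusted p = 6.3e-10) and CLPC2 (1.62 ± 0.074, adjusted p = 3.5e-10) rose and CLPD2 fell by 1.12 ± 0.14 (adjusted p = 4.5e-06). Between 37 °C and 42 °C 2 of the 8, EGY3 and CLPD1, fell in each cultivar (9.14% and 6.45% of all genes called). EGY3 changed most, by log2 -3.63 in Annapurna and -2.43 in IR64. CLPD1 went from means of 3073 to 324.6 and from 862.2 to 336.2. A lower level at 42 °C than at 37 °C was thus not particular to FTSH6.

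For 5 context genes of the heat response, the responses to 37 °C differed much less between the cultivars than for FTSH6 on the main probe sets. A larger response in Annapurna was not particular to FTSH6, however. Over all genes, 996 were called higher at 37 °C in Annapurna. Of these, 168 (16.9%) had a response called larger in Annapurna than in IR64, and 12 (1.2%) a smaller one. HSP26.7, a chloroplast small heat shock protein, went from a mean of 6.56 to 7869 in Annapurna and from 6.28 to 8385 in IR64. Its 37 °C responses differed by log2 -0.11 ± 0.069 (adjusted p = 0.27), and at 42 °C it was at 1453 in Annapurna and 9653 in IR64, a difference of responses of log2 -2.73 ± 0.069 (adjusted p = 1.2e-11). HSFA2A, a heat stress transcription factor, went from 38.0 to 7124 and from 21.8 to 5953 at 37 °C and was back at 19.1 and 33.1 at 42 °C. On the main probe sets the 37 °C responses of HSFA2A, HSFA2C, CLPB1 and CLPB-M differed between the cultivars by log2 -0.28 to -0.07. Their adjusted p lay between 0.13 and 0.84. The main HSFA2C probe set went at 37 °C from a mean of 149.9 to 3488 in Annapurna and from 56.2 to 1605 in IR64. The other HSFA2C probe set went at 37 °C from a mean of 65.8 to 485.8 in Annapurna and from 322.5 to 1071 in IR64. Its fold was thus larger in Annapurna, unlike on the main probe set. The other HSFA2A probe sets also had the larger fold in Annapurna, from 8.99 to 1730 and from 7.17 to 729.5. In IR64 they went from 9.50 to 1177 and from 7.18 to 577.1. HSFA2C is a further heat stress factor, and CLPB1 and CLPB-M are HSP100 disaggregases.

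**Figure D5:**
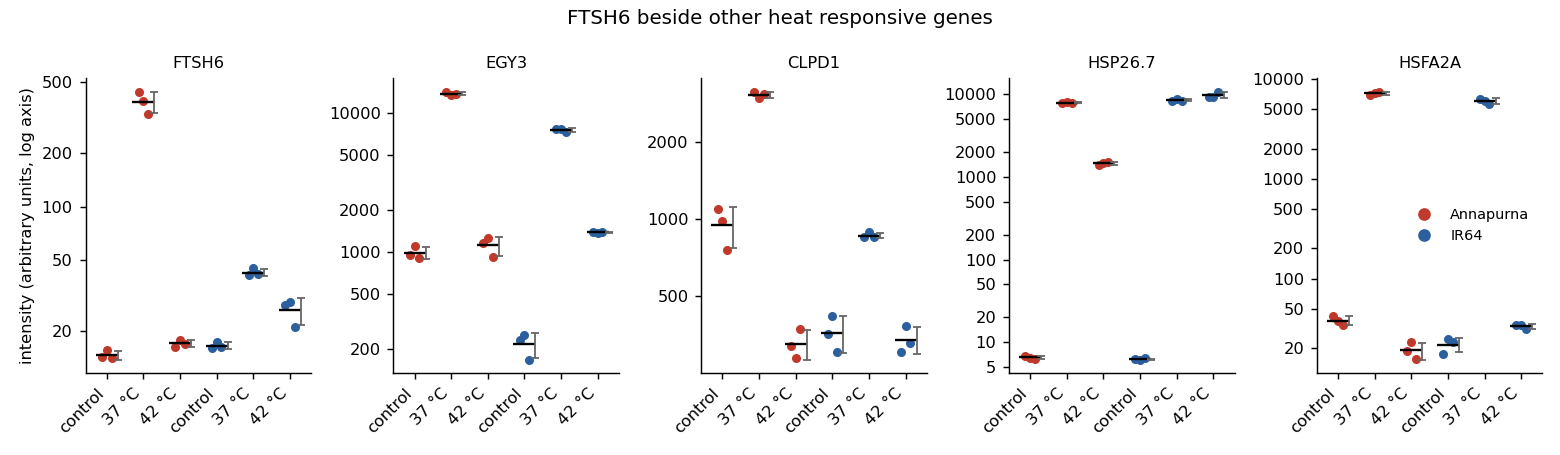
Intensity on every array (log axes, own scale per gene) of FTSH6, the proteolysis genes EGY3 and CLPD1, the chloroplast small heat shock gene HSP26.7 and the heat stress factor HSFA2A, with means as horizontal bars and SD as grey error bars (n = 3). All 5 stand above control at 37 °C in both cultivars, and the gap between the cultivars at 37 °C is widest in FTSH6, with means of 385.5 and 42.7.

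Of the photosystem II and antenna genes, 3 of 20 in the reference were measured under a name: PSB28, CAB2R and RCABP89. PSB28, an assembly factor of photosystem II, fell in Annapurna at 37 °C by 1.09 ± 0.056 (adjusted p = 1.4e-09) and at 42 °C by 1.79 ± 0.056 (adjusted p = 9.9e-12), and in IR64 at 42 °C by 1.80 ± 0.056 (adjusted p = 6.6e-12). In IR64 at 37 °C it was at log2 -0.74 ± 0.056 (adjusted p = 1.0e-07), short of 2-fold. Between 37 °C and 42 °C PSB28 was called lower in IR64, at log2 -1.06, and was short of 2-fold in Annapurna, at -0.70. CAB2R and RCABP89, which encode light-harvesting proteins, were not called in any of the 12 comparisons. No gene is named as a prohibitin, the partner proteins of mitochondrial FtsH, in the annotation.

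The named genes most like FTSH6 over the 18 arrays, by Pearson correlation on the log2 scale among 2476 genes, were OsPIN5 (r = 0.981), ITPK4 (0.973), OsPP2C51 (0.970), OsSDS (0.961) and LIS (0.961). These arrays form 6 groups and 1 group carries most of the range, so r describes a shared peak in Annapurna at 37 °C and has no test. OsPIN5, an auxin carrier family member, had means of 118.3 there and 25.8 in IR64 at 37 °C. OsPP2C51, a protein phosphatase, had 81.8 and 5.45. Within the 9 Annapurna arrays the most similar were HSP17.8 (r = 0.999), DJC27, PDC, OsWOX11 and EGY3 (0.996). Within the 9 IR64 arrays they were Lpa1 (0.983), SAT1 (0.979), HSP17.4 (0.974), HSP16.0 (0.973) and HSP18.6 (0.973).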

How the data were processed

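Total RNA of whole seedlings was measured on Affymetrix rice arrays with labelling from the 3' end, per the labels' protocols. The files deposited by the authors hold linear intensities. GCOS is the only tool in the submitters' processing notes; the steps of summarizing and scaling are not given in the sources used here. Precision is limited by the number of arrays.

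Of 57381 probe sets, 123 controls were left out. Probe sets were named from the platform annotation (22436 with 1 gene, 95 with several, 34727 with none), and a gene is represented by its probe set with the highest mean. Array medians lay within 0.037 on the analysed log2 scale, so the deposited intensities were not normalized again. A model of 6 group means was fitted to log2 of intensity plus 16 with limma 3.58.1 in R 4.3.3 (variance trend, 12 residual degrees of freedom), with 12 comparisons, two-sided, Benjamini-Hochberg adjusted over 57258 probe sets in each, and checked on simulated data. Shares of all genes are over 17905 genes. Python 3.11.15, pandas 2.3.3, numpy 2.4.6 and matplotlib 3.10.9 were used for tables and figures. With 3 arrays against 3 an exact permutation test cannot go below 0.1.

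The members and lists were chosen with earlier results of these data known. Named genes are all FTSH members, from the protease and photosystem II lists the 3 largest called genes of each heat step, 5 context genes, and the 5 named genes most like FTSH6 over all arrays and in each cultivar. Alternatives were the amount added, quantile normalization, a filter on level, no variance trend, no fold limit, a replicate block, each array left out, and, chosen after seeing the data, aligned medians.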

Additional observations from a re-analysis of the deposited data

Results flagged for a closer look

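The response of FTSH6 differed between the cultivars in the fit's interaction terms, by log2 2.85 at 37 °C against control and by -3.11 from 37 °C to 42 °C, Annapurna minus IR64. EGY3 differed the other way at 37 °C, by -1.25, and further at 42 °C against control, by -2.44, and from 37 °C to 42 °C, by -1.20. CLPD1 differed by -1.41 at 42 °C against control and by -1.86 from 37 °C to 42 °C. CLPC2 differed by -1.08 at 42 °C against control. Each of these passed adjusted p under 0.05 and 2-fold over all probe sets. For FTSH6 the adjusted p does not allow for its choice with results of these arrays known.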

How the results depend on the processing

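Over 26 alternatives, 18 of which left out 1 array, the 77 FTSH differences that had adjusted p under 0.05 or belonged to FTSH6 kept their direction, and none of those called lost its call. Most of the 77 were short of 2-fold and had no call to lose. With 1 array left out, limma adjusted p passed 0.05 for some. Between the cultivars it reached 0.079 for FTSH6 and 0.11 for FTSH1 at 42 °C, and 0.076 for FTSH4 in controls. For FTSH5 in Annapurna at 37 °C against control it reached 0.062. FTSH6 in IR64 at 37 °C passed 2-fold only with 1 added (log2 1.31, which raises the FTSH count there to 1). Like the other heat changes of FTSH6 inside a cultivar, this is a description with no test. The FTSH6 difference of responses at 37 °C was 3.30 with 1 added, 2.10 with 64 added and 2.76 to 2.96 with 1 array left out. FTSH7 at 37 °C in Annapurna ranged from -1.08 to -1.04 and FTSH9 at 42 °C in IR64 from -1.15 to -1.03 with 1 array left out.
With no fold limit many more genes are called. In the order Annapurna 37 °C, 42 °C and 42 °C against 37 °C, the same for IR64, the cultivars in controls, at 37 °C and at 42 °C, and the 3 differences of responses, calls went from 1847, 1594, 1637, 1650, 2068, 1155, 1104, 976, 1002, 505, 992 and 918 of 17905 genes to 9929, 9515, 9253, 11072, 12797, 11529, 11388, 9554, 7145, 3823, 10006 and 8086. Those of the 9 FTSH genes went from 2, 1, 1, 0, 1, 0, 0, 1, 0, 1, 0 and 1 to 7, 5, 7, 7, 6, 8, 6, 8, 5, 3, 6 and 6. Inside a cultivar these counts include FTSH6, whose heat changes are a description with no test. For the other 8 genes the calls inside a cultivar went from 1, 1, 0, 0, 1 and 0 to 6, 5, 6, 6, 5 and 7. Those of the 8 other organelle proteases and Clp subunits went from 2, 2, 2, 2, 3, 2, 2, 1, 0, 1, 3 and 2 to 5, 4, 5, 6, 6, 7, 4, 4, 2, 2, 5 and 5. Those of the 3 photosystem II genes went from 1, 1, 0, 0, 1, 1 and then 0 in the other 6 to 1, 2, 1, 2, 3, 2, 3, 1, 1, 1, 1 and 1.
With 64 added, all-gene calls were 705 for the cultivars in controls, 663 at 42 °C, 301 for the difference of responses at 37 °C and 625 at 42 °C. The count of other organelle proteases and Clp subunits called in Annapurna at 42 °C was 1 with 64 added or quantile normalization. It was 1 to 2 with 1 array left out.
Replicate numbers did not pair the samples: deviations of same-numbered arrays correlated at -0.19 to 0.17 (7 of 45 pairs over 0.1), and 8 of 18 arrays were closest to their own number. With the replicate block no FTSH call changed, FTSH6 was still called in its response at 37 °C (2.85), and 503 genes were called there against 505. Low intensities limit FTSH3 and the controls of FTSH6.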
